A study of Mus musculus with 12 samples.

Results

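The mouse mitochondrial chromosome encodes subunits of the respiratory chain, and 10 of its protein-coding genes were followed here in the prefrontal cortex (PFC) after repeated cocaine. They were taken by name from the table of each time point: mt-Nd1, mt-Nd2, mt-Nd3, mt-Nd4, mt-Nd5 and mt-Nd6 of complex I, mt-Cytb of complex III, mt-Co1 and mt-Co3 of complex IV and mt-Atp6 of complex V. The 10 genes lay on 9 of the 41319, 42527 and 41667 loci listed at 2 h, 24 h and 7 d. An FPKM estimate (fragments per kilobase of exon, corrected for the size of the library) was given for 7 of them. The other 3, mt-Co1, mt-Co3 and mt-Atp6, stood at loci marked HIDATA, the flag Cuffdiff writes where a locus holds too many fragments to be processed, and were listed at 0 in every group. That 0 is a failed estimate and not a level.

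The animals were adult male C57BL/6 mice aged 10 weeks. Cocaine (20 mg/kg) or saline was injected intraperitoneally once daily over 14 days, and tissue was taken at 2 h, 24 h or 7 d of withdrawal. Each of the 6 groups gave 2 libraries of poly(A)-selected RNA, and each library pooled the PFC of 5 animals. The tables hold 1 FPKM per group, pooled over its libraries by the authors, so no spread between libraries could be computed, no difference below was tested and the depth behind a value is unknown. Each table was normalized separately. In bulk tissue, fewer cells of a type and less RNA per cell cannot be told apart. The tissue carried cortical markers: the 4 excitatory neuron markers summed to 596 FPKM in the saline group at 24 h, against 19.1 FPKM for the 3 striatal markers and 4.03 FPKM for the 2 choroid plexus markers that passed a mean of 1. Of the immediate-early genes 11 of 11 passed a ratio of 1.2 upward in cocaine at 2 h, 10 of 11 at 24 h and 9 of 10 at 7 d, Fosb being the exception at the later times (log2 ratios -0.06 and 0.06). Arc, an activity-regulated synaptic gene, was at 5.59 FPKM in saline against 77.8 in cocaine at 2 h, 23.2 against 54.1 at 24 h, and 6.47 against 21.6 by 7 d.

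Mitochondrial DNA is a small circle present in many copies per cell. It is transcribed from both strands into long precursors, most genes lying on the transcript of 1 strand and mt-Nd6 on that of the other, and the precursors are cut at the tRNAs that separate many of the genes. The mRNAs receive short poly(A) tails, which in several cases complete the stop codon. Proteins made from them assemble with nuclear-encoded subunits into complexes I, III, IV and V, while complex II is nuclear-encoded throughout. In cortex these complexes supply most of the ATP that neurons use for ion pumping and synaptic signaling.

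The compact layout decides which reads can be told apart. The coordinates of the deposited loci are those of GRCm38, whose mitochondrial positions were the same in NCBIM37. mt-Atp8, mt-Atp6 and mt-Co3 form 1 locus (MT:7766-9390), and mt-Nd4l and mt-Nd4 another (MT:9877-11544). The following ends of the reference transcripts show where neighbours share bases, in capitals; those of mt-Nd5 (MT:11742-13565, plus strand) and mt-Nd6 (MT:13552-14070, minus strand) are complementary over 14 bases. The library kit does not mark strand, so reads of mt-Nd6 and reads antisense to it cannot be separated.
mt-Atp8 end, 43 bases shared with mt-Atp6: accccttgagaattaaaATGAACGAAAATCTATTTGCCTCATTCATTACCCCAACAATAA
mt-Nd4l end, 7 bases shared with mt-Nd4: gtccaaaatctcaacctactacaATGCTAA
mt-Nd5 end, 14 bases complementary to mt-Nd6: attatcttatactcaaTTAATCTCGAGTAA
mt-Nd6 end, 14 bases complementary to mt-Nd5: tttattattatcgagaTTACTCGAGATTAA

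A few reference transcripts, mt-Nd4, mt-Co3 and mt-Cytb, ended 1 base after their last whole codon. That base, a T shown in capitals, becomes the start of a stop codon once the poly(A) tail is added. These ends are shown because the libraries were made from poly(A) RNA.
mt-Nd4 end: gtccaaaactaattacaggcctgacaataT
mt-Co3 end: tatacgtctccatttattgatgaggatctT
mt-Cytb end: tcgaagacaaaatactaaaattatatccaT

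A nuclear copy of part of the mitochondrial chromosome also bears on which values can be read. In NCBIM37, a stretch of chromosome 1 matched mt-Co3 and mt-Atp6 over their whole length, mt-Nd3 over 345 of 348 bases and the first 876 of 1378 bases of mt-Nd4, each at 100% identity, and 483 of 1545 bases of mt-Co1 at 99.8%. The files list this stretch as separate loci between positions 24611535 and 24616197 of chromosome 1 (GRCm38). The share of 75-base windows with an exact match in the nuclear genome was 100% for mt-Co3 and mt-Atp6, 98.9% for mt-Nd3, 61.5% for mt-Nd4, 39.8% for mt-Co1, 5.71% for mt-Nd2 and 0.457% for mt-Nd5. It was 0% for mt-Nd1, mt-Nd6 and mt-Cytb, whose windows had no exact nuclear match. The labels give reads of 75 nt and the paper 100 nt; with 100-base windows the shares were 98.8% for mt-Nd3, 60.8% for mt-Nd4, 30.8% for mt-Co1, 3.19% for mt-Nd2 and 0% for mt-Nd5, and 100% again for mt-Co3 and mt-Atp6. The first 120 bases of mt-Nd3 (MT:9459-9806) are shown, with the bases identical to the chromosome 1 copy in capitals.
mt-Nd3 start: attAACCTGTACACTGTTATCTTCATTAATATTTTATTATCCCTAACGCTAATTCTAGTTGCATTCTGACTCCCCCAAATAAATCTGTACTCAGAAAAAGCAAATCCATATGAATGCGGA

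The 7 measured transcripts stood between 4981 and 19659 FPKM in every group, above the nuclear-encoded subunits of oxidative phosphorylation, whose means in the 3 tables ran from 18.2 to 1319 FPKM. Within a group the order of levels was nearly fixed. mt-Nd1 (MT:2751-3707) and mt-Cytb (MT:14145-15288), the cytochrome b of complex III, were the highest and had overlapping ranges over the 6 groups, 15296 to 19463 FPKM and 15617 to 19659 FPKM. The locus of mt-Nd4 and mt-Nd4l followed at 13039 to 17583 FPKM, and then mt-Nd2 (MT:3914-4951) at 9971 to 14375 FPKM. A gap separated these from mt-Nd6 at 6559 to 9361 FPKM, mt-Nd3 at 4981 to 8636 FPKM and mt-Nd5 at 4984 to 6663 FPKM, 3 ranges that overlapped each other. Relative to the median of the 7 transcripts in the same group, which was mt-Nd2 each time, mt-Nd1 stood at 1.35 to 1.53, mt-Cytb at 1.37 to 1.57, mt-Nd4 at 1.11 to 1.44, mt-Nd6 at 0.62 to 0.72, mt-Nd3 at 0.50 to 0.60 and mt-Nd5 at 0.41 to 0.52. mt-Nd5 and mt-Nd3 exchanged places, mt-Nd5 being the higher in both groups at 24 h and mt-Nd3 in the other 4 groups. The places of mt-Nd3 and mt-Nd4 depend on where reads shared with the chromosome 1 copy were counted. With the copy added, mt-Nd3 stood at 12534 FPKM in saline at 2 h, above mt-Nd2 at 10727 FPKM. The locus of mt-Nd4 then stood at 21600 FPKM, above mt-Nd1 at 16297 FPKM.

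**Figure D1:**
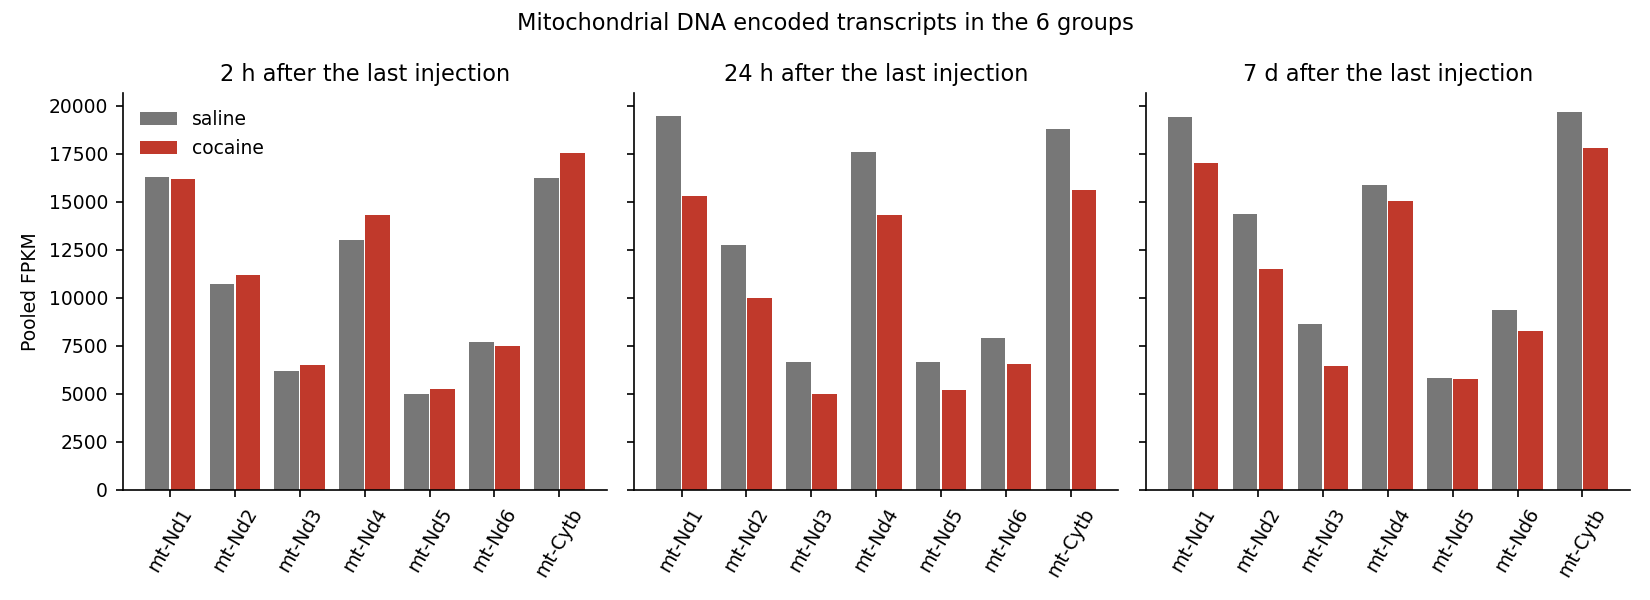
Pooled FPKM (y axis) of the 7 measured mitochondrial transcripts in saline (grey bars) and cocaine (red bars) at 2 h, 24 h and 7 d; each bar is 1 value per group with no error. All 7 red bars are lower than the grey ones at 24 h and at 7 d, while at 2 h the pairs are close, with mt-Nd1 and mt-Nd6 the lower in cocaine.

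At 2 h the mitochondrial transcripts were close to their saline level. mt-Nd1, a core membrane subunit of complex I, was at 16297 FPKM in saline and 16202 FPKM in cocaine. mt-Nd2 was at 10727 and 11178 FPKM, and mt-Nd5, one of the large proton-pumping subunits of complex I, at 4984 and 5256 FPKM. These pairs differed by a few percent. mt-Nd4 with mt-Nd4l had the highest ratio, 13039 FPKM in saline and 14328 in cocaine, a log2 ratio of 0.14. mt-Cytb was at 16239 and 17569 FPKM (0.11), and mt-Nd3 at 6209 and 6524 FPKM (0.07). mt-Nd6 had the lowest, 7721 FPKM in saline and 7513 in cocaine (-0.04). These ratios, like all those below, are log2 of cocaine over saline after adding 1 FPKM to both values.

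A locus was counted as higher or lower in cocaine at a ratio of at least 1.2 in either direction, 0.26 on the log2 scale. At 2 h, 0 of the 7 transcripts were counted in either direction; their median log2 ratio was 0.07, beside 0.02 over the 13804 loci whose mean FPKM reached 1. Of those loci 7.76% were higher and 5.14% lower, and of the 781 loci with a mean of at least 100 FPKM, nearer the level of the mitochondrial transcripts, 7.94% were higher and 3.46% lower. Red blood cell markers stood apart at this time: all 5 passed the ratio, with a median of 0.64, while 0 of 5 passed it at 24 h and 2 of 5 at 7 d.

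At 24 h all 7 transcripts were lower in cocaine, and all 7 passed the ratio of 1.2. mt-Nd3 was at 6651 FPKM in saline and 4981 in cocaine, a log2 ratio of -0.42 and the lowest of the 7. mt-Nd1 was at 19463 and 15296 FPKM (-0.35). mt-Nd2 was at 12766 and 9971 FPKM (-0.36). The genes of the 4 others lie on both strands and include mt-Cytb of complex III, but the libraries did not mark strand. mt-Nd5 was at 6663 FPKM in saline and 5203 in cocaine (-0.36), and mt-Nd4 with mt-Nd4l at 17583 and 14320 FPKM (-0.30). mt-Nd6, on the opposite strand, was at 7905 and 6559 FPKM (-0.27). mt-Cytb was at 18778 and 15617 FPKM (-0.27), just past the ratio.

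The 7 log2 ratios lay within 0.15 of each other, with a median of -0.35 beside 0.01 over the 14264 loci with a mean of at least 1. Among those loci 3.79% were lower and 4.3% higher, and among the 796 loci with a mean of at least 100 FPKM 7.41% were lower and 5.78% higher. Each of the 7 transcripts lay below the 4th percentile of the first set, from 1.65 for mt-Nd3 to 3.73 for mt-Cytb. Within the set with a mean of at least 100 FPKM they lay between percentiles 3.77 and 7.16. The 11 nuclear genes with status OK, a coding transcript of at least 600 nt and a mean of at least 1000 FPKM in every table (Gapdh, marked FAIL, was left out), among them Eef1a1, Fth1 and Apoe, ranged from -0.20 (Ptgds) to 0.07 (Nrgn), and 0 of the 11 passed the ratio. Relative to their own median, mt-Nd5 was at 0.52 in both groups and mt-Nd1 at 1.52 in saline and 1.53 in cocaine, while mt-Cytb was at 1.47 and 1.57, mt-Nd6 at 0.62 and 0.66, mt-Nd4 at 1.38 and 1.44, and mt-Nd3 at 0.52 and 0.50.

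Markers of 2 glial cell types stood lower in cocaine at 24 h as well. All 5 oligodendrocyte markers were below 0 on the log2 scale, their summed level being 715 FPKM in saline and 595 FPKM in cocaine, with Mbp, a myelin protein, at -0.30. All 4 astrocyte markers were below 0 (325 and 294 FPKM summed), with the water channel Aqp4 at -0.30. By the ratio of 1.2, 1 of 5 oligodendrocyte markers (Mbp) and 1 of 4 astrocyte markers (Aqp4) were lower, beside 3.79% of all loci. The neuronal markers were not lower in sum: the 4 excitatory markers summed to 596 and 611 FPKM and the 3 inhibitory ones to 120 and 122 FPKM. The 4 microglial markers summed to 80.3 and 76.2 FPKM, and the 3 endothelial markers to 76.2 and 73.2 FPKM. At 2 h, all 4 astrocyte markers (median 0.15) and all 3 endothelial markers (median 0.13) were above 0. Of the oligodendrocyte markers 4 of 5 were below 0 at 2 h (median -0.08). None of these markers was at 0 FPKM. Their part in the mitochondrial difference was not tested.

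At 7 d the transcripts were again all below saline, by unequal amounts. mt-Nd3 was at 8636 FPKM in saline and 6443 in cocaine, a log2 ratio of -0.42, and mt-Nd2 was at 14375 and 11499 FPKM (-0.32). These 2 of 7 passed the ratio, beside 9.42% lower and 5.22% higher among 13927 loci with a mean of at least 1, and 25.5% lower and 5.73% higher among 785 loci with a mean of at least 100 FPKM. The other 5 did not pass it. mt-Nd1 was at 19414 and 16999 FPKM (-0.19), mt-Nd6 at 9361 and 8277 FPKM (-0.18), and mt-Cytb at 19659 and 17826 FPKM (-0.14). mt-Nd4 with mt-Nd4l was at 15885 and 15028 FPKM (-0.08) and mt-Nd5 at 5827 and 5779 FPKM (-0.01), so that the pair of longest transcripts stood nearest to saline. The ratios spanned 0.41, against 0.18 at 2 h and 0.15 at 24 h, with a median of -0.18. The median was -0.01 over loci with a mean of at least 1 and -0.11 over those with at least 100 FPKM. In the first set the 7 lay between percentiles 3.22 (mt-Nd3) and 49.4 (mt-Nd5). In the second they lay between percentiles 11.1 and 68.8, so ratios below 0 were common among abundant loci. The glial markers were not lower at this time, the oligodendrocyte median being 0.03 and the astrocyte median 0.14. The excitatory marker Neurod6 was at -0.39, and the endothelial markers had a median of 0.17 with Flt1 at 0.30. The choroid plexus gene Ttr was at log2 ratios of -0.99, -0.42 and 2.56 at the 3 times, on low levels of 0.28 to 6.54 FPKM. Kcnj13, the other choroid plexus marker that passed a mean of 1, was at 0.20, 0.05 and 0.06. The 1 olfactory bulb marker locus that passed a mean of 1, shared by Doc2g and Nudt8, was at -0.13, 0.14 and -0.17. Their part in the mitochondrial values was not tested.

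**Figure D2:**
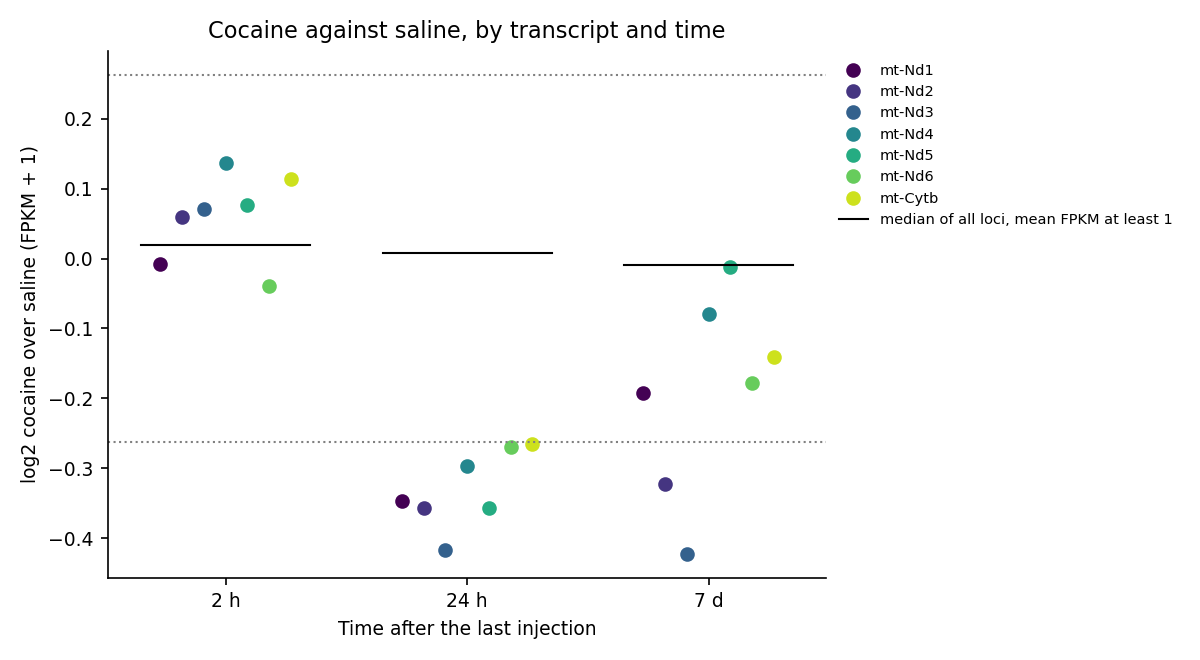
Log2 of cocaine over saline (FPKM + 1, y axis) for each of the 7 measured transcripts (coloured points) at 2 h, 24 h and 7 d (x axis); black lines are the median of all loci whose mean FPKM reached 1 and dotted lines the ratio of 1.2. The points lie around 0 at 2 h, at or below the lower dotted line at 24 h, and between -0.42 and -0.01 at 7 d.

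The differences at 7 d moved with transcript length, in nuclear genes too. Nuclear genes with a coding transcript under 600 nt had a median log2 ratio of -0.20 at 7 d (195 loci, 43.1% lower), those from 600 nt to under 1200 nt -0.19 (876 loci), those from there to under 2000 nt -0.09 (1859 loci) and those of 2000 nt and over 0.03 (8209 loci, 2.72% lower). Over the 7 mitochondrial transcripts, from mt-Nd3 at 348 nt to mt-Nd5 at 1824 nt, Spearman's rho between length and log2 ratio was 0.86 at 7 d, 0.14 at 24 h and 0.68 at 2 h, as a description over 7 points that come from the same libraries. With the median of the nuclear length class taken off, an alternative chosen after seeing the data, 0 of 7 transcripts passed the ratio at 7 d and mt-Nd3 was at -0.22 and mt-Nd2 at -0.14. At 24 h the classes differed little, from -0.04 to 0.02, and 5 of 7 transcripts still passed, mt-Nd6 (-0.22) and mt-Cytb (-0.26) falling just short.

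**Figure D3:**
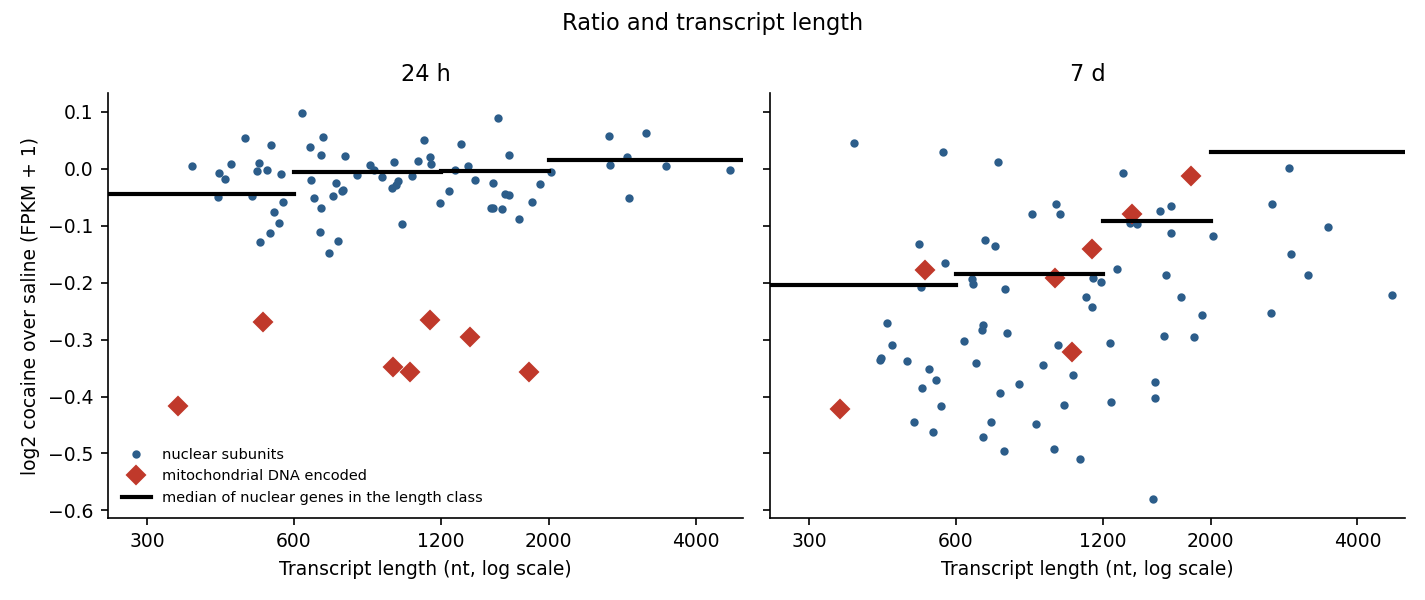
Log2 of cocaine over saline (FPKM + 1, y axis) against transcript length in nt (x axis, log scale) at 24 h and 7 d for mitochondrial (red diamonds) and nuclear (blue points) subunits of oxidative phosphorylation; black lines are medians of nuclear genes in 4 length classes. At 24 h the red diamonds lie below the nuclear subunits, and at 7 d they lie among them.

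Saline levels differed more between the tables than cocaine levels did, a comparison across tables that were normalized separately. The saline level of mt-Nd4 was 0.43 higher at 24 h than at 2 h on the log2 scale and that of mt-Nd2 0.42 higher at 7 d than at 2 h, while the cocaine levels of mt-Nd4 at the 3 times lay within 0.07 of each other. Over the 7 transcripts the median range across the 3 tables was 0.42 in saline and 0.19 in cocaine, and the saline range was the wider in 6 of 7, the exception being mt-Nd6. For 5344 nuclear genes with a mean of at least 10 FPKM in every table the median ranges were 0.17 and 0.14, and saline was the wider in 60.1%. From 2 h to 24 h the median transcript was 0.25 higher in saline and 0.16 lower in cocaine (log2 difference -0.16), where the median nuclear gene was at 0.02 and 0.01. Both medians lay inside the 5th to 95th percentiles of the nuclear genes, -0.20 to 0.25 in saline and -0.23 to 0.23 in cocaine, and in cocaine mt-Nd4 and mt-Nd5 were at -0.00084 and -0.014. At 7 d the median transcript was 0.28 above its 2 h level in saline and 0.07 above it in cocaine.

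The loci of the chromosome 1 copy carried values close to those of the mitochondrial genes they match. The copy of mt-Nd3 stood at 97.8% to 104% of mt-Nd3 over the 6 groups, with log2 ratios of cocaine over saline of 0.08 at 2 h, -0.41 at 24 h and -0.42 at 7 d. For mt-Co2, a complex IV gene outside the 10 whose sequence is copied whole, the copy stood at 101% in each of the 6 groups. The copy of mt-Nd4l and of the first part of mt-Nd4 stood at 8561 FPKM in saline against 9563 in cocaine at 2 h, 12021 against 9730 at 24 h, and 10576 against 10287 at 7 d, below the mitochondrial locus each time. A read that lies within an exactly copied stretch has no single best place, so these paired values cannot be assigned to either place from the tables. Adding the copy to the mitochondrial locus left the counts at 0, 7 and 2 transcripts past the ratio at 2 h, 24 h and 7 d.

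**Figure D4:**
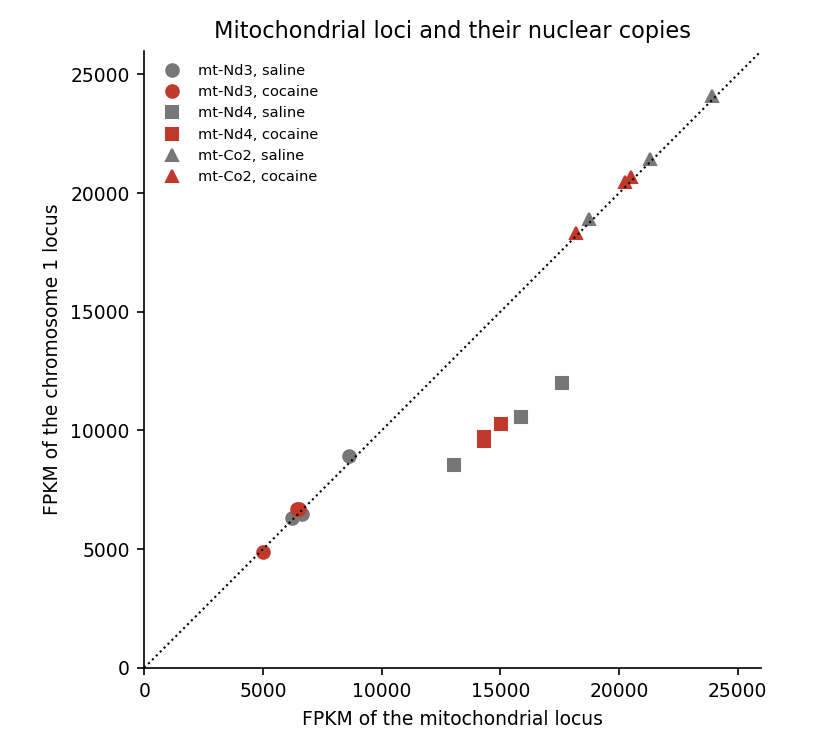
FPKM of a chromosome 1 locus (y axis) against the FPKM of the mitochondrial locus it matches (x axis) for mt-Nd3 (circles), mt-Nd4 with mt-Nd4l (squares) and mt-Co2 (triangles) in saline (grey) and cocaine (red), 6 groups each. Points of mt-Nd3 and mt-Co2 lie on the dotted line of equal values, and those of mt-Nd4, which is copied in part, lie below it.

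For the 3 genes without an estimate, the copy was a place where fragments of the same sequence were counted. The copy of mt-Co3, a core subunit of cytochrome c oxidase, was at 15591 FPKM in saline against 16985 in cocaine at 2 h, 15947 against 13067 at 24 h (log2 ratio -0.29), and 20400 against 16723 at 7 d (-0.29). The copy of mt-Atp6, the membrane subunit of ATP synthase through which protons pass, was at 16283 against 17347 FPKM at 2 h, 18588 against 15357 at 24 h (-0.28), and 21054 against 17192 at 7 d (-0.29). The copy of the last part of mt-Co1, the catalytic subunit of cytochrome c oxidase, was at 23703 against 26165 FPKM at 2 h, 31138 against 20968 at 24 h (-0.57), and 40082 against 33978 at 7 d (-0.24). At 2 h these 3 copies were a little higher in cocaine, and at 24 h and 7 d lower. They are values of nuclear loci and were not counted among the 7.

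The other genes of mitochondrial DNA with steady estimates were mt-Co2 and the ribosomal RNAs. mt-Co2 was at 18751 FPKM in saline against 20495 in cocaine at 2 h (0.13), 21313 against 18186 at 24 h (-0.23), and 23919 against 20265 at 7 d (-0.24), under the ratio each time. mt-Rnr1, the small ribosomal RNA, was at 6110 against 7275 FPKM at 2 h (0.25), 7104 against 5765 at 24 h (-0.30), and 8512 against 6789 at 7 d (-0.33). mt-Rnr2, the large ribosomal RNA, was at 4681 against 5674 FPKM at 2 h (0.28), 5639 against 4461 at 24 h (-0.34), and 6730 against 5673 at 7 d (-0.25). Both ribosomal RNAs thus stood higher in cocaine at 2 h, mt-Rnr2 past the ratio, where mt-Nd1, their neighbour on the same strand, was at -0.01. The level of mt-Rnr2 over that of mt-Nd1 was 0.29 in saline against 0.35 in cocaine at 2 h, 0.29 in both groups at 24 h, and 0.35 against 0.33 at 7 d. The libraries were poly(A)-selected, and how fully they captured ribosomal RNA was not measured. This ratio is therefore not read as a proportion in the tissue.

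The nuclear-encoded subunits of complexes I to V differed from the mitochondrial transcripts in when they were lower. Of 78 listed genes 76 loci had a mean of at least 1 FPKM. Genes were listed by name, with Ndufa4 under complex I and the inhibitor Atpif1 under complex V (-0.44 and -0.46 at 7 d). At 2 h 0 of the 76 passed the ratio (median 0.01) and at 24 h again 0 of 76 (median -0.02, range -0.15 to 0.10), where 7 of 7 mitochondrial transcripts were lower and their highest ratio, -0.27, lay below the lowest of the nuclear subunits. At 7 d 36 of the 76 were lower and 0 higher, with a median of -0.25 beside -0.18 for the mitochondrial transcripts. The share lower at 7 d was 9.42% of all loci, 25.5% of those with a mean of at least 100 FPKM, and 43.1% and 30.9% of nuclear genes in the 2 shortest length classes, and the counts per complex that follow are to be read against those shares. The median length of these nuclear genes was 955 nt at 7 d, in the class whose median over all nuclear genes was -0.19. No test of the difference between the nuclear and mitochondrial genes was possible with 1 value per group.

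Complex I, to which 6 of the 7 measured transcripts belong, had 37 nuclear loci. They had medians of 0.01, -0.02 and -0.28 at the 3 times, with 19 of 37 lower at 7 d, the lowest being Ndufb5, an accessory subunit, at 171 FPKM in saline and 120 in cocaine (-0.51), and the highest Ndufb10 at 0.01. At 24 h they ran from -0.12 at the locus of Ndufb8 to 0.10 for Ndufb7, and at 2 h from -0.17 (Ndufs6) to 0.18 (Ndufa3). The 4 genes of complex II, which has no mitochondrial subunit, were at medians of 0.02, 0.02 and -0.18, with 0 of 4 past the ratio at any time and Sdhb lowest at 7 d (-0.24). In complex III, beside mt-Cytb, 6 of 9 loci were lower at 7 d, from -0.58 for Uqcrq to -0.10 for the iron-sulfur protein Uqcrfs1, and 0 of 9 at 24 h. In complex IV 4 of 10 were lower at 7 d, from -0.49 for Cox7a2 to 0.03 for Cox5b, and 0 of 10 at 24 h, where Cox7c was lowest at -0.15. In complex V 7 of 16 were lower at 7 d, from -0.49 for Atp5j2 to 0.05 for Atp5k, and 0 of 16 at 24 h, where Atp5l was lowest at -0.13.

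**Figure D5:**
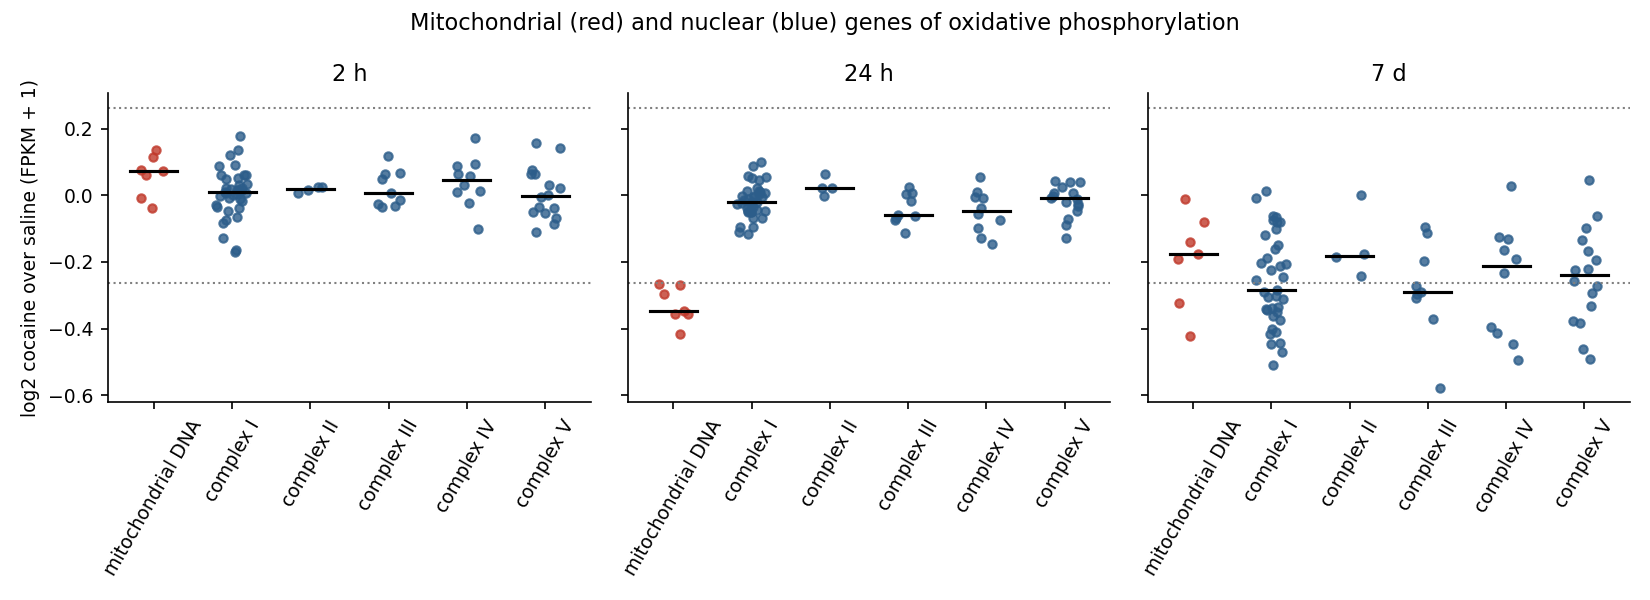
Log2 of cocaine over saline (FPKM + 1, y axis) for the 7 mitochondrial transcripts (red) and the nuclear subunits of complexes I to V (blue, 76 loci) at 2 h, 24 h and 7 d; black lines are medians and dotted lines the ratio of 1.2. At 24 h all red points and 0 of 76 blue points are past the lower dotted line, and at 7 d 2 of 7 red and 36 of 76 blue points are.

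Genes that transcribe, copy and process mitochondrial DNA were mostly within the ratio. The counts that follow stand beside shares of all loci of 7.76% higher at 2 h, 4.3% at 24 h and 5.22% at 7 d, the shares lower being 5.14%, 3.79% and 9.42%. Of the loci for transcription and replication 1 of 17 was higher at 2 h, Tfam, which packages mitochondrial DNA and starts its transcription, at 11.7 FPKM in saline and 14.7 in cocaine (0.31), the lowest there being Primpol (-0.25). At 24 h 1 of 16 was higher, Rnaseh1 (2.61 and 3.72 FPKM, 0.39), with Mterfd3 lowest (-0.20). At 7 d 1 of 16 was lower, a locus that Mterfd1 shares with Uqcrb (-0.29), and Polrmt, the mitochondrial RNA polymerase, was highest at 9.51 and 11.2 FPKM (0.21). The medians of this list were -0.01, 0.06 and -0.16.

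Among 21 loci for processing and stability of mitochondrial RNA, the medians were -0.03, 0.00 and -0.10. Slirp, which binds mitochondrial mRNAs together with Lrpprc, was at 30.8 against 27.2 FPKM at 2 h (-0.18), 29.8 against 23.7 at 24 h (-0.32), and 38.5 against 29.4 at 7 d (-0.38), the lowest of its list at the last 2 times. Lrpprc itself stood at log2 ratios of 0.04, 0.07 and -0.06. Fastkd2, an RNA-binding protein of mitochondria, was past the ratio at 2 h (-0.30) and 24 h (-0.28) and highest of the list at 7 d (0.14), at 3.6 to 5.0 FPKM in the first 2 tables. The others past the ratio were Fastkd1 at 24 h (0.28), and Ptcd2 (-0.34) and Hsd17b10 (-0.27) at 7 d. Fastkd3 was the highest at 2 h (0.18).

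The regulators of mitochondrial biogenesis and the genes used as measures of mitochondrial content held 1 locus past the ratio, Pprc1 at 24 h (0.35, at 2.98 and 4.06 FPKM), with medians of 0.01, -0.01 and -0.01 over 14, 14 and 13 loci. Ppargc1a, a coactivator of mitochondrial biogenesis, was at 5.26 against 5.19 FPKM at 24 h, and Cs, the citrate synthase of the mitochondrial matrix, at 76.3 and 76.0 FPKM. Timm23 of the inner membrane import channel was the lowest at 24 h (-0.12) and 7 d (-0.25). The highest were Ppargc1b at 2 h (0.26) and Yy1 at 7 d (0.17), and Gabpb1 was the lowest at 2 h (-0.16).

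The transcripts followed each other over the 6 groups. Pearson's r between log2(FPKM + 1) of 2 transcripts ran from 0.40 to 0.97 over the 21 pairs, with a median of 0.82, as a description over 6 values that share libraries and scaling within a group. Each with the mean of the others gave 0.98 for mt-Nd2 and mt-Cytb, 0.96 for mt-Nd1, 0.83 for mt-Nd6 and mt-Nd3, and 0.71 for mt-Nd5 and mt-Nd4. Among 5344 nuclear genes, those most like the mean of the 7 were Fundc2, Tfdp1, Emg1 and Rbm7 (r of 0.97 each, over 6 values), followed by the chromosome 1 copy of mt-Atp6 (0.96). For mt-Nd3 alone the most alike were its own copy (0.99), Cnep1r1, Rpsa, the copy of mt-Co3 and Rn7sk, and for mt-Nd6 alone Ndufaf2, S100b, Rn7sk, Stx5a and Snrpf (0.97 to 0.98). With 6 values and this many genes, correlations of that size are a ranking only.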

How the data were processed

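RNA of 12 PFC libraries (6 groups of 2) was sequenced. According to the labels the authors used CASAVA 1.8.2, Trimmomatic 0.32, TopHat2 2.0.12, Cufflinks 2.2.1 and Cuffdiff on GRCm38, whereas the paper names mm9 and uniquely mapped reads. The authors deposited 1 table per time point with a pooled FPKM for saline and for cocaine. The column heads are ambiguous; the first FPKM column was read as saline because the columns headed saline and cocaine in the paper's supplementary tables hold closely similar FPKM in that order. The authors' fold change, test statistic, p, q and significance columns were not used.

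Members, gene lists and markers were chosen with earlier results of these data known. Ratios were log2((cocaine + 1)/(saline + 1)) within a table, on the longest locus naming a gene. The background was loci with a mean FPKM of at least 1, or 100. Named were all members, the extremes of each list, list genes past the ratio where there were 5 or fewer, other mitochondrial genes, and the 5 genes most alike; Arc, Lrpprc, Ppargc1a, Cs, Mbp and Aqp4 and the abundant nuclear genes were named after their values were seen. Lengths were those of the longest coding transcript in GENCODE vM1. Transcripts were aligned to NCBIM37 with BLAST 2.17.0 (at least 95% identity), and copies were tied to the deposited loci by their distance from a gene present in both builds. Python 3.11.15, pandas 2.3.3, numpy 2.4.6, scipy 1.17.1 and matplotlib 3.10.9 were used. The calculation of ratios and the counting past 1.2 were checked on simulated cocaine values with planted ratios at 2 h. The planted ratios were read back without the added 1 FPKM, and the other steps were not checked this way. Depth is unknown, so no interval was computed.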

Additional observations from a re-analysis of the deposited data

How the results depend on the processing

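No paired analysis was possible because each deposited value is pooled over its group, and no library was left out for the same reason. Counts and medians of the 7 transcripts at 24 h stayed at 5 to 7 lower and -0.40 to -0.34 under every other setting except the 2 that follow. At a ratio of 1.5, 0 were lower at 24 h and 0 at 7 d, and at 1.1, 5 were lower at 7 d. Scaling the groups to equal summed FPKM outside the mitochondrial chromosome, a sum in which 27 of the 31 loci above 100000 FPKM at 2 h spanned under 300 bases, put 7 higher at 2 h (median 0.90), 0 lower at 24 h (median 0.024) and 7 lower at 7 d (median -1.69), and put mt-Nd1, mt-Nd2, mt-Nd4, mt-Nd5, mt-Nd6 and mt-Cytb at 0.024, 0.015, 0.076, 0.015, 0.10 and 0.11 at 24 h. All loci moved with it: 96.8% were higher and 0.746% lower at 2 h, 71.5% against 1.2% at 24 h, and 0.696% against 98.9% at 7 d. Settings chosen after seeing the data changed 7 d: taking off the length-class median left 0 lower (median 0.012), and equal summed FPKM of nuclear genes with coding transcripts of at least 600 nt left 1 lower, with 14.8% of all loci higher and 4.48% lower.

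The share of all loci past the ratio depended on its settings. With no pseudocount it was 7.89% lower at 2 h, 6.55% higher and 5.84% lower at 24 h and 8.83% higher at 7 d, and with a pseudocount of 0.1 7.82%, 6.6%, 6.06% and 8.54%. At a ratio of 1.1, 20.9% were higher and 14.2% lower at 2 h, 13.6% against 12.2% at 24 h, and 17.9% against 23.1% at 7 d. At 1.5 these shares were 1.72% and 1.15%, 1.4% and 1.07%, and 1.26% and 1.82%. With a mean of at least 10 FPKM 2.21% were lower at 2 h and 2.3% at 24 h, with at least 100 FPKM 7.41% at 24 h and 25.5% at 7 d, and at equal upper quartiles 8.42% were higher at 7 d. The list for transcription and replication had a median of 0.13 at 2 h with a mean of at least 10 FPKM and at 7 d, with at least 100 FPKM, 1 locus was left, the one Mterfd1 shares with Uqcrb (-0.29). The 7 transcripts held 0.000223% to 0.00178% of the summed FPKM of all loci, and all mitochondrial genes 0.000662% in saline and 0.00183% in cocaine at 2 h, 0.00392% against 0.00539% at 24 h, and 0.00419% against 0.000703% at 7 d. Over loci of at least 300 bases the 7 held 3.85% against 1.51% at 2 h, 7.41% against 0.494% at 24 h, and 1.98% against 2.46% at 7 d, so no share of RNA was read from these sums. The other settings kept the direction and the side of the ratio for the median of the 7 transcripts.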

Other observations

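The transfer RNA genes of the mitochondrial chromosome gave uneven values. Of 19 loci, the number listed at 0 in both groups was 11 at 2 h, 8 at 24 h and then 6 at 7 d. Each of these counts includes mt-Ts1, whose 0 was a failed estimate. Above 0 in both were 2, 7 and 6. The genes mt-Te and mt-Ta were the ones above 0 in all 6 groups, mt-Te from 17075 to 118138 FPKM and mt-Ta from 2865 to 30510 FPKM. mt-Te, which lies between mt-Nd6 and mt-Cytb, was at 39114 FPKM in saline against 70151 in cocaine at 2 h, 20633 against 17075 at 24 h, and 118138 against 28114 at 7 d. Above 0 in 1 to 5 groups were mt-Tc, mt-Tg, mt-Th, mt-Tk, mt-Tl1, mt-Tm, mt-Tn, mt-Tp, mt-Tr, mt-Tt, mt-Tv, mt-Ty and the joint locus of mt-Tl2 and mt-Ts2, with highest values from 6066 FPKM (mt-Th) to 61626 FPKM (mt-Tg). mt-Td, mt-Tf and mt-Tq were at 0 throughout, and mt-Ts1 shared the locus of mt-Co1 that had no estimate. No order between groups was read from these short genes.

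Nuclear stretches on chromosome 2 annotated as Gm13341 and Gm13340 stood between 94.3 and 415 FPKM. The log2 ratios of Gm13341 were 0.06, -0.23 and -0.28 at the 3 times, and those of Gm13340 were 0.01, -0.29 and -0.26. They were named after their values were seen.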
